A study of Mus musculus with 16 samples.

Results

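The genes described here encode the proteins of the cytosolic ribosome. They were chosen by name from a mouse RNA sequencing series on memory-phenotype B cells: every symbol that is Rpl or Rps followed by a digit, with Rplp0, Rplp1, Rplp2 and Rpsa, and without Rps6k kinases, Rps19bp1, Rpl7l1 and symbols ending in "-ps". The rule used no measured value and found 84 of the 22675 genes that both deposited tables share. Of these, 46 are core proteins of the large subunit, 31 are core proteins of the small subunit and 7 are paralogs of core genes (Rpl22l1, Rps27l, Rps27rt, Rpl36al, Rpl39l, Rpl10l and Rpl3l). A filter on low counts left 81 of the 84 for testing, and Rpl10l, Rpl3l and Rpl39l did not pass it.

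The series asked how memory B cells that express the zinc finger protein Zfp318 differ from those that lack it. All 16 libraries were made from about 1000 splenic B cells each, by Smart-seq2 (full-length cDNA primed on poly(A) tails), 7 days after C57BL/6 mice had received NP-OVA with LPS and alum. They had been sorted as B220+ CD38+ cells that bound NIP, and cells positive for IgD, FAS, GL7 or CD138 had been left out. The mice of every group carried the labelled alleles AID-Cre, B1-8hi (an antibody heavy chain knock-in for the hapten) and GFP, so all comparisons are within that background. HetTN and HetTP were tdTomato-negative and tdTomato-positive cells of animals with the genotype Zfp318 ZSDAT/+, and KOTN and KOTP were the same sorted populations of Zfp318 ZSDAT/ZSDAT animals, with 4 libraries in each group. There was no group without the ZSDAT allele, and AID-Cre is active in activated B cells. Whether each library had its own animal is not stated in the labels, and the p-values therefore reflect only how the libraries of a group vary, which may be technical.

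A ribosome holds 1 copy of most of these proteins, and the cell makes them in matched amounts together with ribosomal RNA. Their mRNAs belong to the TOP class, which begins with a cytosine followed by a run of pyrimidines, and whose translation is governed by the kinase complex mTORC1 and the RNA-binding protein LARP1. In B cells the ribosomal protein mRNAs are among the most abundant, and ribosome production rises when resting cells are activated.

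RefSeq (GRCm38.p6) gave annotated start sites for 64 of the 84 genes. The windows below run 5′ to 3′ on the gene's strand from 15 bases before the start to 15 bases from it on. Capitals mark the longest run that begins with C, holds only C or T, spans at least 5 bases and begins within 10 bases of the start. Rps6 and Rps10 are shown as genes with a run at the start, and Rps21 and Rpl37a as genes with large differences between the genotypes. Rps2 and Rps27l are shown as genes that did not rise, and Rps27 with its copy Rps27rt because their coding sequences are identical.
Rps6, chr4:86857353-86857382, minus strand: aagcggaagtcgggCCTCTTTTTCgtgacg
Rps10, chr17:27635230-27635259, minus strand: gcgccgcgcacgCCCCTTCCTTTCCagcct
Rps21, chr2:180257364-180257393, plus strand: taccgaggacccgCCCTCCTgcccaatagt
Rpl37a, chr1:72711245-72711274, plus strand: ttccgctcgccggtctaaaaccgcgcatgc
Rps2, chr17:24720048-24720077, plus strand: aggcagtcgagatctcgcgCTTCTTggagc
Rps27l, chr9:66946071-66946100, plus strand: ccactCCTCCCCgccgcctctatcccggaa
Rps27, chr3:90213634-90213663, minus strand: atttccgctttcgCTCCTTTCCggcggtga
Rps27rt, chr9:114982725-114982754, minus strand: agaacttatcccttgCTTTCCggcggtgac
Such a run was found in 40 of the 64 matched members (62.5%), against 34.4% of the 27025 genes with an annotated start and 37.1% of the 7940 tested genes that are not members. Some members have several annotated starts, and a member was counted if any of them had a run. Rps21 and Rps27l each have another start, not shown, without a run. Only the sense strand was searched, and the window reports letters near an annotated start, not a mapped 5′ end. Rpl37a had no run in the window, while Rps10 had one of 13 bases.

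Counts assigned to the joined genes ranged from 7748787 to 15742445 per library. Zfp318 stood at 78.8 to 151.7 CPM (counts of a gene per 1000000 counts of its library) in the 8 heterozygous libraries and at 0.446 to 5.42 in the 8 homozygous libraries. By sort, its mean was 118.5 CPM in HetTN and 112.5 CPM in HetTP, so the tdTomato-negative heterozygous cells did not lack the transcript. The B cell genes Cd79a and Ms4a1 were abundant in all 16 libraries, the lowest value being 930.7 CPM for Ms4a1. The 2 genotypes came in separate deposited tables, and these differ in ways that move with genotype. The ratio of counts to mapped reads (the divisor behind the authors' scaled values) was 1.35 to 1.5 in heterozygous libraries and 0.369 to 0.419 in homozygous ones. Tested genes without any count made up 7.02% to 13.6% of a heterozygous library and 1.52% to 2.34% of a homozygous one, and the biological coefficient of variation was 0.845 against 0.2. Among genes with 1 to 20 counts, 81.1% to 83.4% of values were even in homozygous libraries. In heterozygous libraries 55.9% to 85.2% were, with the lowest share in HetTN library 1, and the cause was not tested. A difference between genotypes and a difference between the tables cannot be told apart in this design. In bulk samples such as these, fewer cells of a type and less RNA per cell cannot be told apart either.

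The 84 genes took 12.2%, 20.1%, 18.3% and 19.5% of all counts in HetTN libraries 1 to 4, and 15.2%, 16.7%, 18.5% and 17.6% in HetTP. In the homozygous groups they took 24.9%, 23.5%, 22.4% and 21.9% in KOTN, and 22.9%, 24.1%, 23.2% and 25.8% in KOTP. Each homozygous library lay above each heterozygous one, and the tdTomato groups overlapped within each genotype. Group means were 17.5% ± 3.63 (SD, n = 4) in HetTN, 17.0% ± 1.43 in HetTP, 23.2% ± 1.33 in KOTN and 24.0% ± 1.34 in KOTP. The mean share in KOTP was thus 1.41 times that in HetTP, and the mean share in KOTN 1.32 times that in HetTN. The HetTN mean rests on library 1, which had the lowest share of all. Both subunits showed the pattern: large subunit core genes took 6.79% to 10.7% of counts in heterozygous and 11.9% to 13.8% in homozygous libraries, and small subunit core genes 5.34% to 9.36% and 9.91% to 12.0%. For the 16 non-ribosomal genes of TOP mRNAs the share was 1.97% to 2.37% in heterozygous and 1.99% to 2.14% in homozygous libraries, which overlap.

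**Figure D1:**
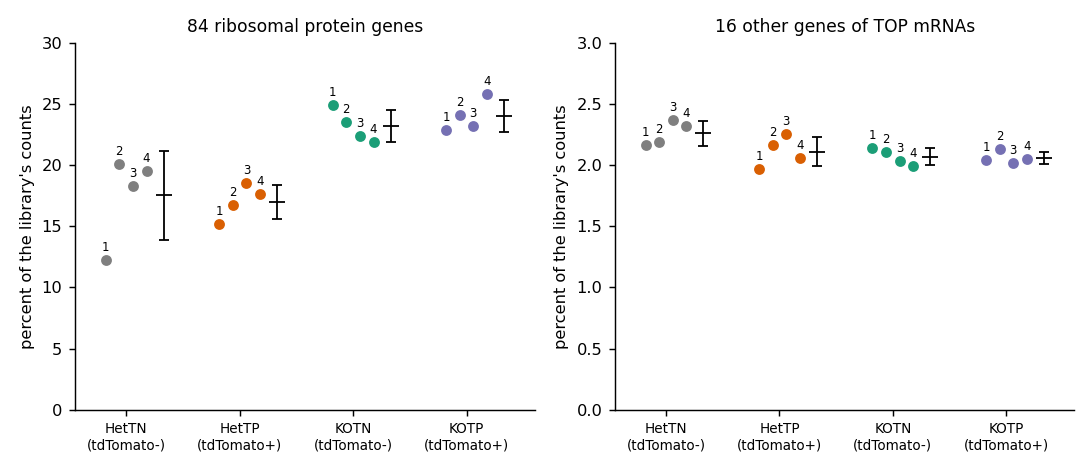
Percent of each library's counts taken by the 84 ribosomal protein genes (left) and by 16 other genes of TOP mRNAs (right). Points are libraries, numbered as labelled, and bars give the mean ± SD of 4 libraries. On the left the homozygous groups lie at 21.9% to 25.8% and the heterozygous groups at 12.2% to 20.1%; on the right the groups overlap.

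Per length, the core genes were not equally abundant. Mean CPM per kb of coding sequence over all libraries had a median of 4458.8 over 76 core genes, with quartiles at 3361.6 and 6638.7 and extremes 16.3-fold apart. Rps27, a small subunit protein with a zinc finger, stood highest at 29848.6 CPM per kb in this mean over groups. Rpl41, the shortest member with 75 coding bases, followed at 29280.6, and Rps29 at 23672.8. Rplp1 stood at 13265.2. The order changes between groups: Rpl41 was above Rps27 in HetTN (24855.6 against 24505.1) and in KOTN (34808.8 against 33232.3). The lowest in the mean over groups were Rpl5 (1829.4), Rpl7a (1830.9), Rpl22 (2017.9), Rpl12 (2178.7) and Rpl3 (2190.9). By group, the lowest of these was Rpl22 in HetTN (1359.2), Rpl5 in HetTP (1449.9) and Rpl7a in KOTN (1941.8) and KOTP (1882.0). Very short genes have few sites for full-length reads, so their per-length values are the least certain. Rpl13a was left out of this set because its level, 0.988 to 4.77 CPM over the 16 libraries, was far under all other core genes. Of the 50-base windows of its coding sequence, 97.5% also occur in another annotated gene, and how reads with several matches were counted is not stated. Such sharing was not particular to Rpl13a. In 31 members all windows are shared, among them Rpl5, with a mean of 1630.0 CPM over all libraries. The cause of the low Rpl13a level was not tested.

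Comparing homozygous with heterozygous cells in the tdTomato-positive sort (KOTP against HetTP), 67 of the 81 tested members rose and none fell. In edgeR's quasi-likelihood test, adjusted over all 10687 genes tested and called at an adjusted p under 0.05, 5.06% of all genes were called higher and 5.22% lower. On simulated counts with each genotype's own spread, this fit called unchanged genes more often than its threshold allows in both genotype comparisons and most often in HetTP against HetTN, so adjusted p-values in these comparisons can be too small. Folds here are on edgeR's TMM scale, which sets the bulk of genes level, while CPM values use the plain library total. The median log2 fold change of the members was 0.79, against -0.03 over all genes tested, and 78 of 81 members were above 0. Of the 46 large subunit core genes 37 rose (median 0.78), and of the 31 small subunit core genes 28 rose (median 0.82). Members whose 4 KOTP libraries all lay above the 4 HetTP libraries numbered 70, against 7.06% of all genes tested, and 1 member, Rps27l, lay wholly below, against 13.8%. Over the 76 core genes the folds had quartiles at 0.65 and 0.88 and an SD of 0.22. The median standard error of a gene was 0.17, which measures variation between libraries and not between genes. Abundant genes as a class also leaned upward, since of 98 non-members with a mean CPM in the core members' range 45 rose and 5 fell (median 0.39). Non-members with coding lengths in the members' range had a median of 0.03. Scaling changes the balance of all calls: 49.2% of them were higher on the TMM scale, 59.6% with upper quartile scaling and 27.7% with library totals alone, where the median of all genes was -0.25 and that of the members 0.56, with 49 members higher against 3.28% of all genes.

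**Figure D2:**
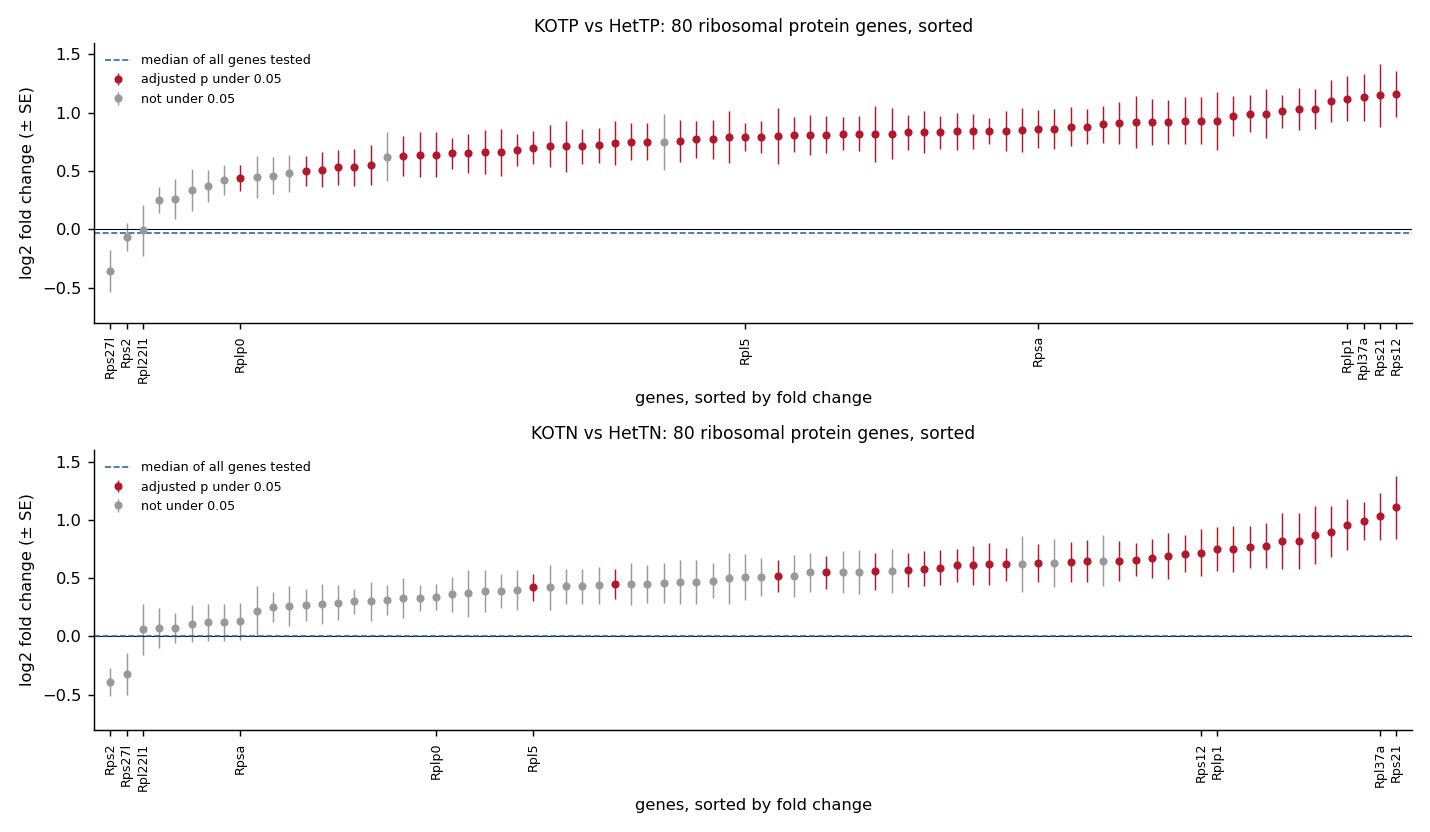
Log2 fold change ± SE of 80 tested ribosomal protein genes (Rpl13a left out), sorted, for KOTP against HetTP (top) and KOTN against HetTN (bottom), with the median of all genes tested as a dashed line. The genes named on the axis are those shown as single members or paralogs in the text. Red points have an adjusted p under 0.05: 67 genes at the top and 33 at the bottom, all above 0. Rps2, Rps27l and Rpl22l1 stand at the left end of both panels.

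The largest rises were those of Rps12, Rps21, Rpl37a and Rplp1. Rps12, a protein of the small subunit's head, was at 784.9, 673.5, 1045.8 and 1052.4 CPM in HetTP and at 1634.2, 1715.9, 1632.2 and 1820.4 CPM in KOTP. The lowest KOTP library was well above the highest HetTP library, and the log2 fold change was 1.16 (SE 0.20, adjusted p = 0.000766). Rps21, a small subunit protein next to Rpsa, was at 662.6, 611.1, 778.7 and 812.2 CPM in HetTP and at 1302.7, 1318.0, 1237.1 and 1554.8 CPM in KOTP. These groups did not overlap either, and the log2 fold change was 1.15 (SE 0.27, adjusted p = 0.00842). Rpl37a, a zinc-binding protein of the large subunit, stood between 2524.8 and 2812.9 CPM in HetTP and between 4574.6 and 5557.6 CPM in KOTP (log2 fold change 1.13, SE 0.20, adjusted p = 0.000976). Rplp1, an acidic protein of the stalk that recruits elongation factors, rose by 1.12 (SE 0.19, adjusted p = 0.000787), from 2703.1 to 3764.9 CPM in HetTP to 5515.2 to 6502.1 CPM in KOTP. Rps10 (1.10), Rps14 (1.03), Rpl34 (1.03) and Rpl19 (1.01) completed the 8 largest. Among the smallest rises past the threshold were those of Rplp0 (0.44, adjusted p = 0.0176), Rpl10 (0.50), Rpl36al (0.51), Rpl3 (0.53), Rpl17 (0.53), Rpl7 (0.63) and Rps23 (0.64).

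**Figure D3:**
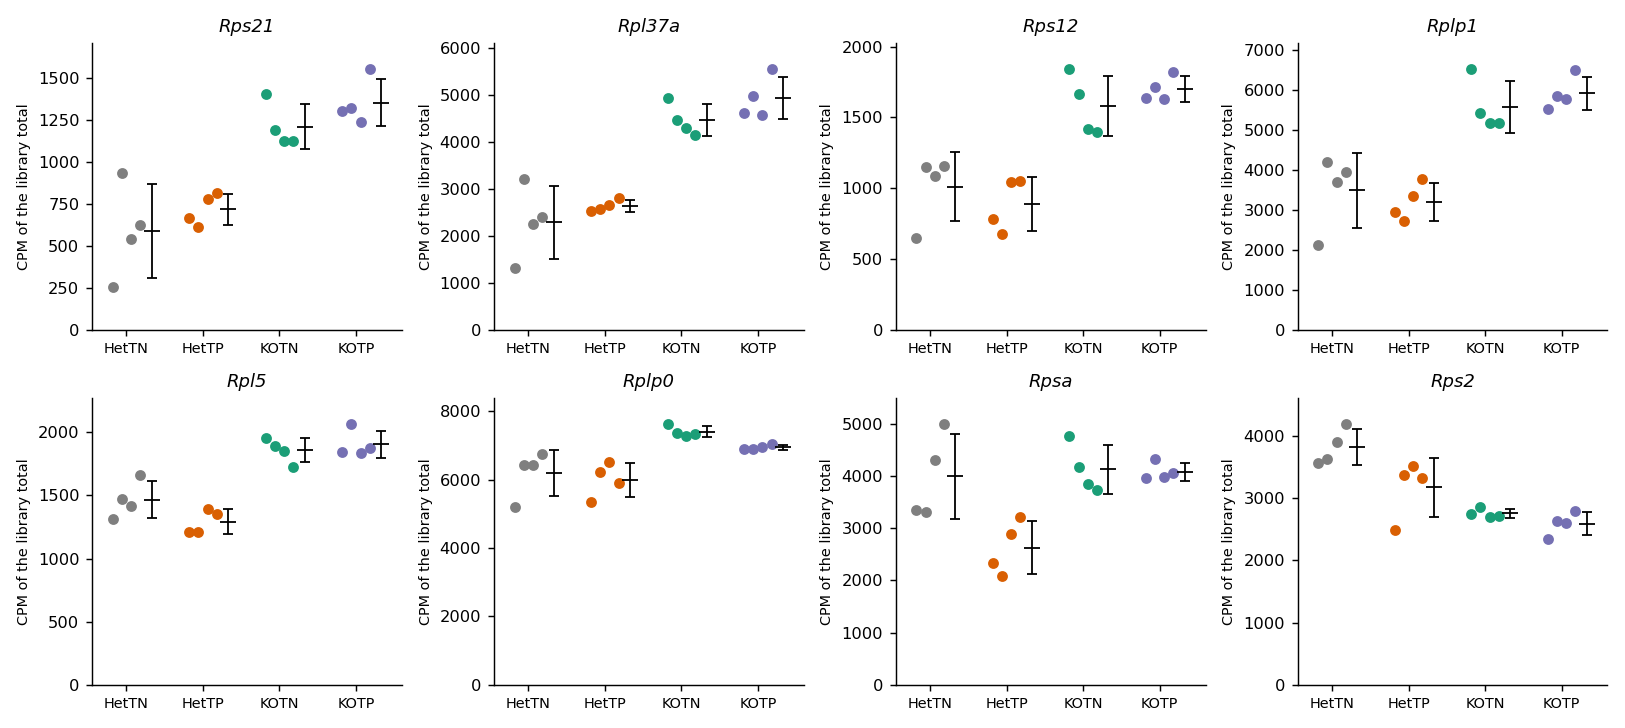
CPM of the library total for 8 ribosomal protein genes in every library, with axes from 0. Points are libraries in label order from left to right and bars give the mean ± SD of 4 libraries. Rps21, Rpl37a, Rps12 and Rplp1 are higher in each homozygous library than in each heterozygous one, Rpsa is lowest in HetTP, and Rps2 is lower in the homozygous groups than in HetTN.

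Among the 14 tested members that were not called was Rps2, a small subunit protein at the mRNA entry. Its levels were 2477.9, 3371.8, 3517.3 and 3318.8 CPM in HetTP and 2343.5, 2629.5, 2596.9 and 2783.2 CPM in KOTP. The groups overlapped, and the log2 fold change was -0.07 (SE 0.12, adjusted p = 0.864). Rpl4, a large subunit protein lining the exit tunnel, was at 4312.2 to 5001.4 CPM in HetTP and at 4699.4 to 4884.9 CPM in KOTP (0.25, SE 0.11, adjusted p = 0.208). Rpl14 (0.26, adjusted p = 0.439), Rps7 (0.34, adjusted p = 0.286) and Rpl35 (0.37, adjusted p = 0.102) also missed the threshold, as did the paralogs Rps27l and Rpl22l1 described further on. Rps2, Rpl4, Rpl14, Rps7 and Rpl35 were singled out after their values were seen.

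The same comparison in the tdTomato-negative sort (KOTN against HetTN) gave 33 members higher and none lower, where 5.61% of all genes were called higher and 4.88% lower. The members' median was 0.51 against 0.00 over all genes tested, and 79 of 81 were above 0. In 47 members all KOTN libraries lay above all HetTN libraries, against 10.4% of all genes. Of the 98 non-members of like abundance 34 rose and 13 fell (median 0.17). Of all calls 53.5% were higher on the TMM scale, 63.5% with upper quartile scaling, where 51 members rose (6.97% of all genes), and 43.1% with library totals alone, where 35 rose (4.5% of all genes). Rps21 had the largest rise, from 251.5, 932.3, 542.1 and 620.5 CPM in HetTN to 1406.3, 1187.6, 1123.8 and 1123.5 CPM in KOTN. All KOTN libraries were above all HetTN libraries, and the log2 fold change was 1.11 (SE 0.27, adjusted p = 0.0124). Rpl37a followed with 1.03 (SE 0.20, adjusted p = 0.00258). Rpl24, a large subunit protein that bridges to the small subunit, rose by 0.99 (SE 0.16, adjusted p = 0.000607), from 695.0 to 1270.8 CPM in HetTN to 1796.2 to 1944.3 CPM in KOTN. Rpl39 (0.96) and Rpl22 (0.90) came next. Rps2 was at 3562.6 to 4188.2 CPM in HetTN and at 2700.3 to 2853.6 CPM in KOTN, without overlap, as in 8.5% of all genes. Its log2 fold change of -0.39 (SE 0.12) had an adjusted p of 0.0523. It was called lower in 5 of the 12 fits that left out no library, among them DESeq2 (adjusted p = 0.00471), and adjusted p ranged up to 0.128.

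The count in the tdTomato-negative sort changed more with the fit. The median SD of log2 CPM over 76 core genes was 0.38 in HetTN, 0.18 in HetTP, 0.09 in KOTN and 0.09 in KOTP, and the test shares 1 estimate of spread over all groups. Fitted to the 8 compared libraries alone, 5 members rose in KOTN against HetTN (3.25% of all genes) and 73 in KOTP against HetTP (5.27%). With weights for each group's spread (voom, added after the data were seen), 38 and 70 rose (3.34% and 4.69% of all genes). Leaving out KOTN library 1 or 2 left 13 or 17 members higher in the tdTomato-negative sort, where 3.46% and 3.09% of all genes were. Without HetTN library 1, the library with the lowest share, the members' median there was 0.34 with 38 higher and 2 lower, against 6.69% and 4.96% of all genes.

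Within heterozygotes (HetTP against HetTN) 1 of 81 members was called, Rpsa, and it was lower in tdTomato-positive cells. Of all genes tested 0.468% were called lower and 0.599% higher. Rpsa, the laminin receptor protein of the small subunit, was at 3356.4, 3304.6, 4316.2 and 4997.6 CPM in HetTN and at 2331.3, 2093.8, 2886.0 and 3207.2 CPM in HetTP. No HetTP library reached the lowest HetTN library, as for Rps2 and 1.24% of all genes, and Rpsa fell by 0.73 on the log2 scale (SE 0.16, adjusted p = 0.0405). That call was lost in 11 of the 16 fits that left out 1 library, with adjusted p between 0.00913 and 0.0686, in the fit to the 8 heterozygous libraries alone, and in both voom fits. The call for Rpsa is therefore weak. In simulated counts with 200 changed genes, most genes that this test called in HetTP against HetTN were unchanged ones. That share is over genes of all levels, depends on the number of changed genes, and was not measured for genes as abundant as Rpsa. Other members with a small p were Rpl29 (-0.50, adjusted p = 0.0704) and Rps2 (-0.39, adjusted p = 0.107). Members' folds had a median of -0.18, against 0.02 over all genes tested, and 17 of 81 were above 0. The 98 non-members of like abundance had a median of -0.19, with 6 called lower and none higher. HetTN library 1 bears on this comparison: without it the median was -0.35 and 32 members were called lower (2.18% of all genes), whereas the fit to the other 7 heterozygous libraries alone called none. Mitochondrially encoded mRNAs moved in this comparison as well, with 6 of 13 lower in HetTP, and took 2.65% to 4.26% of counts in HetTN and 1.27% to 2.6% in HetTP. Their part in the ribosomal protein values was not tested.

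Within homozygotes (KOTP against KOTN) no member was called in either direction, where 0.0187% of all genes were. No member had an unadjusted p under 0.05 in edgeR's test, and DESeq2 and voom called none. Over all genes DESeq2 called 2 higher and 9 lower, and voom with group weights 94 and 163. On simulated counts the edgeR fit recovered 8% of 2-fold and 39% of 4-fold changes in this comparison, so it can miss real differences. The members' median was 0.08 with 70 of 81 above 0, against -0.01 over all genes tested. Rps27 had one of the highest folds at 0.22 (SE 0.20), with 7888.8 to 9224.0 CPM in KOTN and 9006.2 to 10617.2 CPM in KOTP, which overlap. Rplp0 was at 7264.4 to 7624.7 CPM in KOTN and at 6890.3 to 7044.6 CPM in KOTP, without overlap, and its log2 fold change was -0.07 (SE 0.11, adjusted p = 1.0). Of all genes tested, 4.51% had KOTP libraries wholly below the KOTN libraries.

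The difference between the tdTomato effects of the genotypes was not called for any member, where 0.122% of all genes were called. The members' median was 0.24 against -0.05 over all genes tested. At an unadjusted p under 0.05, 8 members were higher and none lower in edgeR's test, where 4.02% of all genes were higher. DESeq2 called 1 member higher (0.786% of all genes) and voom none. Rpsa (0.73, SE 0.23, adjusted p = 0.256), Rpl12 (0.62, SE 0.24, adjusted p = 0.364), Rps27rt (0.77, SE 0.30, adjusted p = 0.38) and Rpl29 (0.48, SE 0.19, adjusted p = 0.396) were among those with the smallest p.

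Sorted by their place in the ribosome, members of each site rose in the tdTomato-positive sort. The counts below stand beside 82.7% of all tested members called higher in KOTP against HetTP and 40.7% in KOTN against HetTN, and whether any site differs from the other members was not tested. All 4 proteins of the stalk (Rplp0, Rplp1, Rplp2 and the base protein Rpl12) rose in KOTP against HetTP, with a median of 0.79, and 1 of 4 rose in KOTN against HetTN. Rplp0 anchors the stalk, and its rise of 0.44 was less than that of its partner Rplp1 at 1.12; the difference between them was not tested. Rpl5, Rpl11 and Rpl23, which bind the p53 regulator Mdm2 when ribosome assembly fails, rose in both sorts (3 of 3 each, medians 0.81 and 0.57). Rpl5 was at 1207.0 to 1394.9 CPM in HetTP and at 1833.5 to 2065.4 CPM in KOTP, which do not overlap (0.79, SE 0.12, adjusted p = 0.000206). Rpl11 had values of 1472.1 to 1944.1 CPM in HetTP and 2511.5 to 2749.7 CPM in KOTP (0.81, SE 0.15, adjusted p = 0.00173). Around the exit tunnel, where the new chain leaves, 7 of 10 rose in KOTP against HetTP and 6 of 10 in KOTN against HetTN, Rpl19 and Rpl39 among them. At the mRNA entry and head 6 of 8 rose in the tdTomato-positive sort and 4 of 8 in the other. At the platform, on the mRNA exit side, 6 of 6 rose in KOTP against HetTP (median 0.90) and 3 of 6 in KOTN against HetTN, and Rpsa fell in HetTP against HetTN. Of 10 genes mutated in Diamond-Blackfan anemia 9 rose in KOTP against HetTP and 5 in KOTN against HetTN. Rps19, the gene most often mutated in that disease, was at 4302.0 to 5026.3 CPM in HetTP and at 5887.2 to 6966.4 CPM in KOTP (0.65, SE 0.17, adjusted p = 0.018). Rps6, the substrate of S6 kinase, rose in both sorts, by 0.65 (SE 0.13, adjusted p = 0.00315) in KOTP against HetTP and by 0.45 (SE 0.13, adjusted p = 0.0335) in KOTN against HetTN.

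Of the 4 tested paralogs, Rpl36al and Rps27rt rose in KOTP against HetTP and Rps27l and Rpl22l1 were not called. Rps27l, a p53-inducible relative of Rps27 with 76.2% identical coding bases, was at 183.1, 323.1, 230.3 and 268.3 CPM in HetTP and at 159.0, 161.0, 166.2 and 180.9 CPM in KOTP. No KOTP library reached the lowest HetTP library, yet the log2 fold change of -0.36 (SE 0.18) had an adjusted p of 0.271; scaled to library totals alone it was -0.59 (adjusted p = 0.0257). Rps27 rose by 0.92 (SE 0.20, adjusted p = 0.00597). Rps27l counts amounted to 4.14% ± 0.855 (SD, n = 4) of Rps27 counts in HetTN, 4.29% ± 1.32 in HetTP, 2.22% ± 0.136 in KOTN and 1.74% ± 0.0756 in KOTP. The KOTP libraries lay below the KOTN libraries and these below all heterozygous libraries. Rpl22l1, which can replace Rpl22 and is held down by it, has 66.9% identical coding bases. It was at 309.2 to 583.6 CPM in HetTP and at 341.1 to 397.2 CPM in KOTP (log2 fold change -0.01, SE 0.22, adjusted p = 0.993), while Rpl22 rose by 0.79 (SE 0.22, adjusted p = 0.0253). As a percent of Rpl22 counts Rpl22l1 stood at 72.9% ± 13.5 in HetTN, 64.9% ± 19.6 in HetTP, 38.8% ± 1.03 in KOTN and 37.5% ± 1.3 in KOTP, and all homozygous libraries were below all heterozygous ones. Rpl36al showed no such split, with 50.9% ± 12.9, 42.3% ± 5.87, 40.2% ± 2.42 and 39.1% ± 1.33 of Rpl36a counts.

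Over these 3 ratios and 4 comparisons, 5 of the 12 two-sided exact permutation tests gave p = 0.0286, the smallest that 4 against 4 libraries allow. These were Rps27l in KOTP against HetTP, KOTN against HetTN and KOTP against KOTN, and Rpl22l1 in the genotype comparisons. Adjusted over the 12 tests each was 0.0686. None thus passed 0.05 after adjustment, and that outcome also depends on how many of the 12 tests reach the smallest p. Rps27rt has a coding sequence identical to that of Rps27 (100%), so reads within it match both genes. How such reads were assigned is not stated. The values of Rps27rt (48.3 to 119.5 CPM) may hold reads of Rps27, and its rise may not be separate from that of Rps27. Rpl10l and Rpl3l, expressed in testis and in muscle, had no count in any library, and Rpl39l had 36 counts in all, 21 in KOTN and 15 in KOTP.

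**Figure D4:**
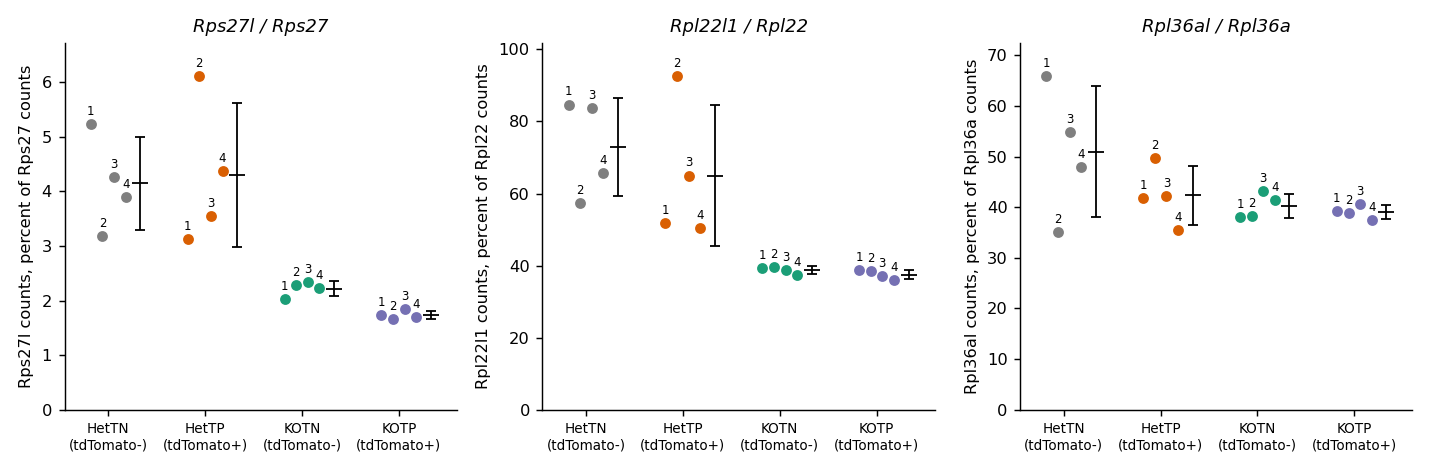
Counts of Rps27l, Rpl22l1 and Rpl36al as a percent of the counts of Rps27, Rpl22 and Rpl36a in each library, axes from 0. Points are libraries, numbered as labelled, and bars give the mean ± SD of 4 libraries. Rps27l and Rpl22l1 ratios are lower in each homozygous library than in each heterozygous one, while Rpl36al ratios overlap.

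Shorter members had the higher folds. Across 76 core genes the log2 fold change fell with log2 coding length, with Pearson's r = -0.43 and Spearman's rho = -0.41 in KOTP against HetTP and r = -0.53, rho = -0.57 in KOTN against HetTN. It did so within each genotype too, with r = -0.36 in HetTP against HetTN and r = -0.50 in KOTP against KOTN. These are descriptions across genes of the same libraries, which are not independent replicates, and the comparisons share the same 4 groups. HetTN library 1 was far below the rest of its group for short members such as Rps21 (251.5 CPM against 542.1 to 932.3). For Rps2, a longer member, it was close to the rest (3562.6 CPM against 3621.9 to 4188.2), but Rps2 had the lowest SD of log2 CPM in HetTN among core genes. Longer members differed in this. Rpl7a was at 1067.3 CPM in library 1 against 1618.6 to 1740.0, and Rpl7 at 1608.7 against 2257.2 to 2871.0. Rpsa, at 3356.4 CPM, lay within the range of the rest (3304.6 to 4997.6). The part of this library in the comparisons with HetTN was not tested. Over 10054 non-members r was 0.02, 0.00, 0.01 and 0.07 in the same order. In KOTN against HetTN, members of up to 300 coding bases had a median of 0.82 (11 genes, 6 called higher), those over 300 and up to 600 bases 0.55 (48 genes, 21 called) and those over 600 and up to 1000 bases 0.37 (20 genes, 6 called). Non-members of the same length classes had medians of 0.08, 0.03 and 0.09. In KOTP against HetTP the members' medians were 0.85, 0.81 and 0.67, beside 0.21, 0.05 and 0.02 for non-members.

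**Figure D5:**
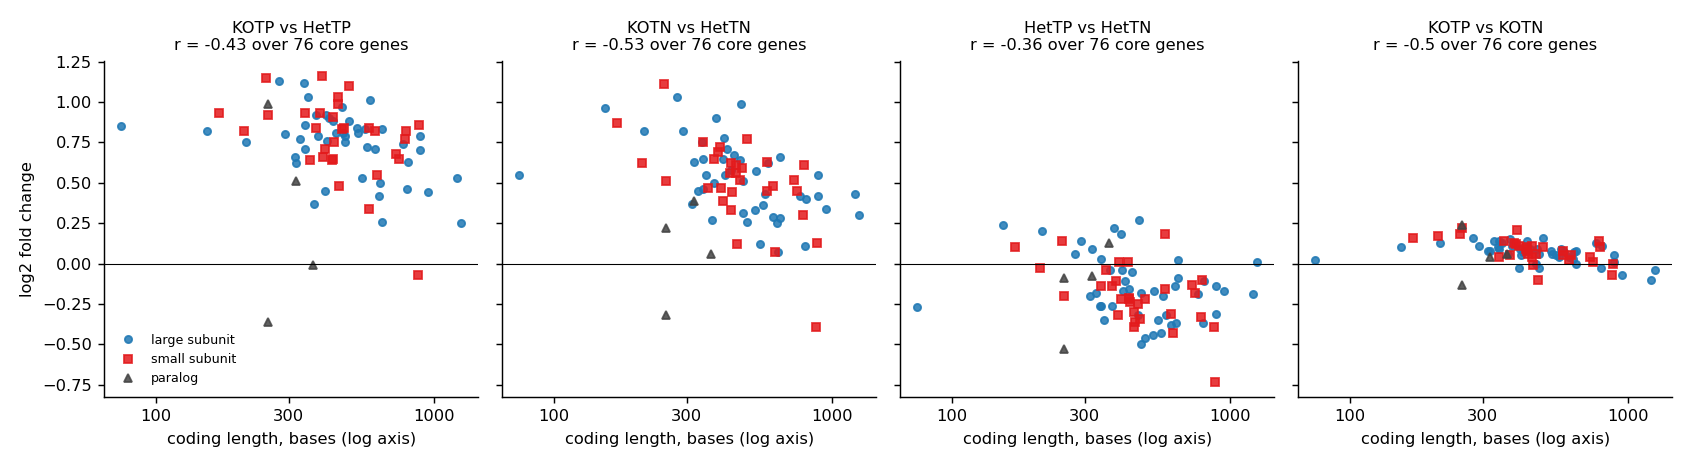
Log2 fold change against coding length (log axis) for 80 ribosomal protein genes in 4 comparisons. Circles are large subunit core genes, squares small subunit core genes and triangles paralogs. The downward lean is present in each panel (r from -0.36 to -0.53 over 76 core genes), with the narrowest range of folds in KOTP against KOTN.

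Most ribosomal protein genes have processed copies elsewhere in the genome, so the overlap with other genes was measured. In 31 members every 50-base window of the coding sequence also occurs in another annotated gene, and 14 have under 50% of windows shared. Of the 11 tested members in that second class 8 rose in KOTP against HetTP (median 0.79) and 7 in KOTN against HetTN (median 0.59). The 31 fully shared members had medians of 0.81 (28 rose) and 0.52 (12 rose). Medians by start-site run are given without a test of their difference. In KOTP against HetTP the median was 0.76 over 37 tested members with a run and 0.81 over 24 without, and in KOTN against HetTN 0.55 and 0.56.

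Other genes of the translation machinery were called in both directions. Fau, which encodes the small subunit protein made as a ubiquitin-like fusion and lies outside the naming rule, rose by 0.88 in KOTP against HetTP (SE 0.18, adjusted p = 0.00299). Of the 16 other TOP genes 3 rose and 1 fell there (median 0.20). Eef1b2, an elongation factor subunit, rose by 0.76 and Naca, of the nascent chain complex, by 0.61, while Hnrnpa1, an RNA-binding protein, fell by 0.56. In KOTN against HetTN none of the 16 rose and 2 fell: elongation factor Eef2 by 0.56 and the poly(A)-binding protein Pabpc1 by 0.71. Of 25 initiation factors 1 rose and 5 fell in KOTP against HetTP (median -0.23), and 1 rose and 6 fell in KOTN against HetTN. Eif4a2, a helicase, rose by 0.78 and 0.83 in these comparisons, while Eif3b fell by 1.39 in KOTP against HetTP. None of 18 tested mTORC1 and LARP1 genes and none of 11 RNA polymerase I genes was called in either genotype comparison. Of 19 tested chaperones and assembly factors of ribosomal proteins none was called in KOTP against HetTP and 1, Riok3 (0.63), rose in KOTN against HetTN.

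Markers of other cell types moved with genotype as well. The summed level of 12 T cell markers was 0.0226% to 0.075% of counts in heterozygous and 0.00268% to 0.00494% in homozygous libraries, and Trac, 99.4 to 464.2 CPM in heterozygous libraries, had no count in 7 of the 8 homozygous ones. Cd3e, another of the 12, ranged only from 0.0 to 11.3 CPM in heterozygous libraries and was at 0.0 in the homozygous ones. The 12 myeloid markers took 0.0148% to 0.14% and 0.00759% to 0.0154%, the plasma cell markers 0.0298% to 0.0939% and 0.0111% to 0.0265%, and the 8 germinal center markers 0.0539% to 0.106% and 0.0209% to 0.0452%. Of 6 tested T cell markers 3 fell and none rose in each genotype comparison, and of 12 myeloid markers 6 fell in KOTP against HetTP and 7 in KOTN against HetTN. The 10 B cell markers took 3.31% to 4.43% of counts in heterozygous and 2.71% to 3.39% in homozygous libraries. Cd74, the invariant chain of MHC class II and one of them, had a mean of 25503.2 CPM in HetTN and 13420.2 CPM in KOTN. Of these 10 markers 6 rose and 2 fell in KOTP against HetTP, and 5 rose and 2 fell in KOTN against HetTN. Mitochondrially encoded mRNAs, 11 of 13 lower in KOTN against HetTN and 1 of 13 lower in KOTP against HetTP, also moved. The part of these genes in the ribosomal protein values was not tested.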

How the data were processed

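The authors deposited 2 tables of raw counts over coding sequences, 1 for each Zfp318 genotype, with 8 libraries each. Reads were processed with Trim Galore, STAR 2.2.0 and featureCounts on mm10, per the submitters' processing notes. The strand setting and the treatment of reads that match several places are not given in the sources used here. Beside the counts the authors deposited a score per gene and library: the count divided by 1 divisor per library, which the file headers call mapped reads. This score was used only to find the divisor. The tables were joined by symbol; 4 entries of duplicated names and 1 without a partner in each table were left out of 22680.

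CPM used each library's total over the joined genes. Differences were tested with edgeR 4.0.16 (R 4.3.3, TMM, filterByExpr, robust quasi-likelihood, all 16 libraries, 12 residual degrees of freedom) with Benjamini-Hochberg adjustment over 10687 genes. DESeq2 1.42.0 and voom (limma 3.58.1), other scalings and filters, the 8 compared libraries alone, a replicate block and leaving out each library were alternatives. The edgeR fit was tested on simulated data with each genotype's own spread; it gave the right sign for changed genes it called, but called too many unchanged genes in the comparisons of HetTP with HetTN and of the genotypes. Coordinates and coding lengths came from GENCODE on GRCm38.

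Named members are, per comparison, the 8 highest and 8 lowest folds among those called (the 5 with the smallest p where under 5 were called), a fixed list of members, the paralogs with their parents, and the 5 most and 5 least abundant per length and the 3 most variable core genes. Of genes that are not members, up to 3 with the smallest p were named per list, and Cd3e was added for its low level. Members and lists were chosen with earlier results of these data known. Some genes are not reported by name here.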

Additional observations from a re-analysis of the deposited data

Results flagged for a closer look

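Among 212 groups of 4 libraries examined, 5 held a library whose gap to its nearest neighbour exceeded Dixon's critical value for the group's range; chance flags about 1 in 20 groups. HetTN library 1, which had the lowest member share (12.2%), was the lowest of its group for many members, Rps21 and Rps29 among them. The rule flagged it for 4 genes. There Rpl39 was at 286.3 CPM against 649.4 to 685.2 in the other 3 libraries, Rpl34 at 1268.0 against 2094.6 to 2249.6, Rps12 at 650.2 against 1089.1 to 1155.3, and Rpl17 at 1056.5 against 1586.2 to 1639.8. In HetTP, library 3 was the highest for Rpl22, at 808.6 CPM against 611.8 to 630.4.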

How the results depend on the processing

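In KOTN against HetTN 1 member, Rps2, was called lower under RLE scaling, library totals alone, a filter at 5 CPM in 4 libraries, DESeq2 and the replicate block, while 51 members were higher with upper quartile scaling and 5 with the compared libraries alone. In KOTP against HetTP library totals alone gave 1 member lower (Rps27l) and a median of 0.56. The other alternatives without a left-out library called 63 to 73 members higher. Over all genes they called 448 (filter at 5 CPM) to 693 (upper quartile scaling) higher. In HetTP against HetTN, DESeq2 called 4 members lower (Rpsa, Rpl29 and Rps2 among them, beside 2.95% of all genes) and 0 were lower with either voom fit, with the replicate block and with the compared libraries alone; library totals alone put 76.6% of all calls higher, against 56.1%. DESeq2 called 1 member higher for the difference between tdTomato effects. With TMM-scaled totals the mean share was 15.4% in HetTP and 25.6% in KOTP. Leaving out 1 library gave, in the fit to all libraries, 49 to 75 members higher in KOTP against HetTP (median 0.73 to 0.84, 0 lower), 13 to 45 higher and 0 to 2 lower in KOTN against HetTN (median 0.34 to 0.60), 0 to 32 lower in HetTP against HetTN (median -0.35 to -0.09), 0 in KOTP against KOTN (median 0.02 to 0.11) and 0 to 1 higher for the difference between tdTomato effects (median 0.16 to 0.41). With the compared libraries alone, the ranges were 67 to 75 higher and 0 to 1 lower, 0 to 28 higher (11 without HetTN library 2 and 10 without HetTN library 4) and 0 to 2 lower, 0 lower (median -0.34 to -0.09), and 0 to 4 higher (median 0.03 to 0.12). Calls over all genes moved between these fits as well. In KOTN against HetTN 3.09% of all genes were higher without KOTN library 2 and 6.69% without HetTN library 1. Without HetTN library 1, 2.18% of all genes were lower in HetTP against HetTN. The ranges of members alone therefore do not separate a change in the members from a change in all calls, and the cause was not tested. Libraries of the same number correlated at most at 0.0868 between groups, and those of different numbers at most at 0.0657. Values this low do not show that the numbers pair libraries, and they cannot exclude it. The replicate block gave 65 members higher in KOTP against HetTP and 40 in KOTN against HetTN. Of 5796 values of named members, 5401 kept their side of the threshold, 302 lost and 93 gained the call, and none that was called reversed; 132 uncalled values changed sign.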
